A study of Mus musculus with 4 samples.

Results

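Imprinted growth regulators with known roles in stem cells were followed across 4 arrays of sorted mouse bone marrow cells. The rule lists the genes by name and uses no measured value: H19, Igf2, Igf2r, Dlk1, Meg3, Peg3, Grb10, Ndn, Mest and Plagl1. Of these 10 genes, 9 were measured among 19938 genes in all, each by its probe set of highest mean level. H19 was not analysed here.

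An imprinted gene is read mainly from the copy inherited from a single parent, the other copy being kept silent by DNA methylation and chromatin laid down in the germ line. Many imprinted genes act on growth: maternally read genes such as Igf2r and Grb10 generally restrain it, and paternally read genes such as Igf2 generally promote it. In blood-forming tissue, several of them are best known from long-term stem cells, where they have been tied to quiescence and to insulin-like growth factor (IGF) signalling.

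The arrays held RNA of LSK cells, the lineage-negative, Sca-1-positive, Kit-positive fraction of bone marrow that contains stem cells and multipotent progenitors. Cells lacking the surface receptor Flt3 include the stem cells, and cells carrying it are multipotent progenitors. The Hdac3-null group (genotype Vav-Cre/Hdac3Flox/-) had 2 arrays of LSK/Flt3- cells, the wild-type (WT) LSK/Flt3- group had 1 array, and the WT LSK/Flt3+ group had 1 array. All were on the C57BL/6 background, and the sorted cells were pooled from 5 to 30 mice. Hdac3 encodes a histone deacetylase of corepressor complexes, and the Vav promoter drives Cre in blood cells. The label of the WT groups names neither Cre nor a floxed allele, so an effect of Cre or of the single remaining floxed copy cannot be told apart from loss of Hdac3. No age or sex is given.

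All levels below are deposited log2 values, and a difference of 1 on that scale is 2-fold. Array medians over all probe sets were 5.30 to 5.60, highest on null replicate 1. Hdac3 read 5.71 and 5.04 on the null arrays against 6.18 and 6.33 on the WT LSK/Flt3- and LSK/Flt3+ arrays, lower on both null arrays, with an adjusted p of 1 in limma for both differences. Kit was between 10.11 and 10.77 on all 4 arrays, and Sca-1 (Ly6a) was not analysed here. Flt3 read 7.84 and 7.02 on the null arrays, 9.18 on the WT LSK/Flt3- array and 10.07 on the WT LSK/Flt3+ array. Xist, which is read from the inactive X chromosome of female cells, was 10.84 and 9.67 on the null arrays and 4.23 and 3.90 on the WT arrays, while Kdm5d, a Y-linked gene, lay between 7.31 and 8.66 on all 4, so female cells were in the null pools and sex and genotype cannot be told apart. Null replicate 1 also stood apart in an erythroid marker list, whose summed level was 60.8 there and 69.3 to 73.1 on the other 3 arrays.

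Taken over the 9 genes, no difference between null and WT cells passed the test, and the levels were low throughout. Of the 9, only Grb10 and Igf2r averaged 6 or more; probe sets differ in brightness, so levels are compared between arrays and not between genes. No source used here says which probe sets stood above background, so for the 7 genes with a mean under 6 a small difference may not be measurable. Grb10 was the only one of the 9 whose 4 arrays spanned at least 2-fold, against 7.42% of all genes. The group's ranges over the arrays were 0.17 to 1.09 with a median of 0.47, beside a median of 0.46 over all genes.

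**Figure D1:**
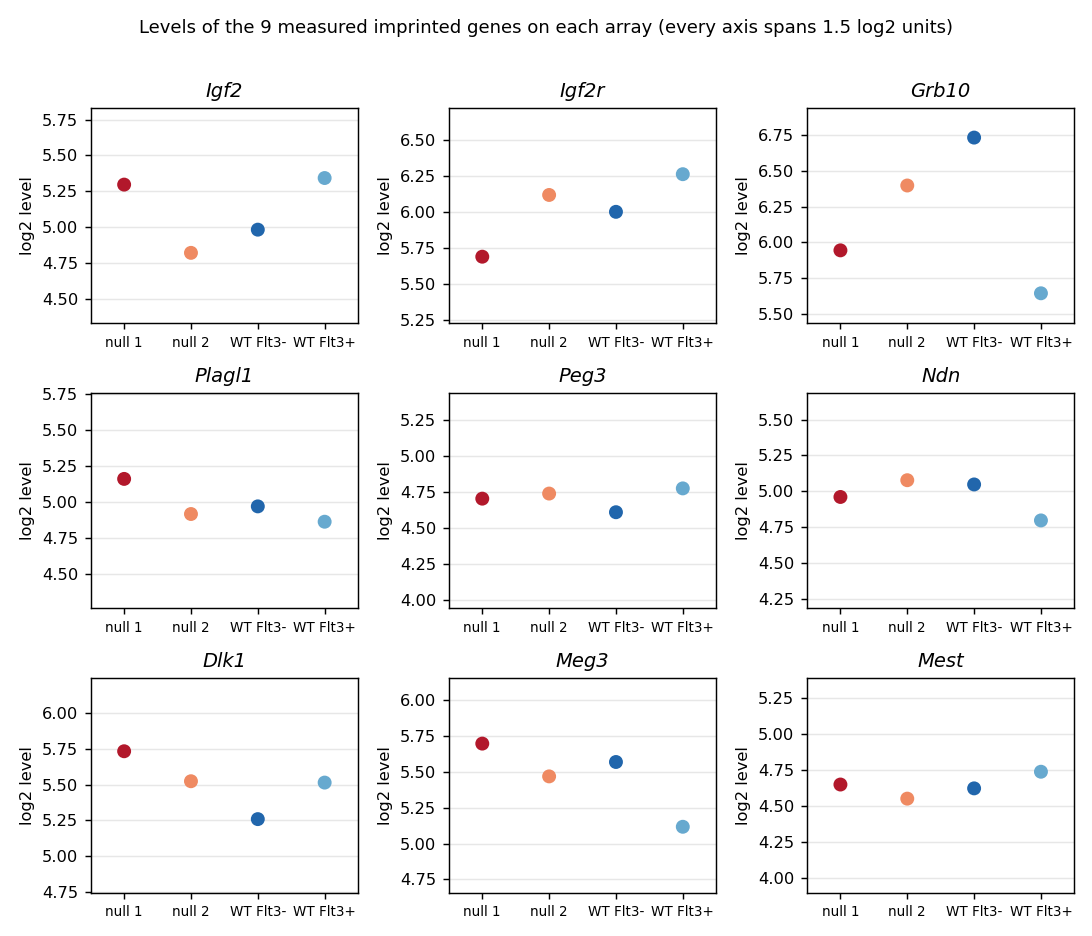
Log2 level (vertical axis) of each of the 9 measured imprinted genes on each of the 4 arrays, with a point per array. The other 8 genes keep within 0.58 on the log2 scale over the arrays, while Grb10 runs from 5.65 on the WT LSK/Flt3+ array to 6.73 on the WT LSK/Flt3- array.

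Grb10 encodes an adaptor protein that binds the activated insulin and IGF1 receptors and restrains their signalling. Its level was 5.94 and 6.40 on the null arrays, 6.73 on the WT LSK/Flt3- array and 5.65 on the WT LSK/Flt3+ array. Both null arrays therefore lay between the WT arrays. Within WT cells, Grb10 was 1.09 lower in LSK/Flt3+ than in LSK/Flt3- cells. With 1 array a group this difference has no replicate check and no p-value. A fall of at least 2-fold from Flt3- to Flt3+ was seen in 0.176% of all genes, and a change of that size in either direction in 1.1%. The null cells were 0.56 ± 0.36 (SE, 2 arrays against 1) lower than WT LSK/Flt3- cells, with a 95% interval of -1.36 to 0.24 (limma, adjusted p = 1). They were 0.53 higher than WT LSK/Flt3+ cells, with an interval of -0.27 to 1.32 (limma, adjusted p = 1). The null arrays differed from each other by 0.45. Each of them was below the WT LSK/Flt3- array, by 0.79 and 0.33, and above the WT LSK/Flt3+ array, by 0.30 and 0.75.

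The Grb10 difference between the WT arrays stood beside differences in cell type markers. Of 17 measured genes of a stem cell marker list, 13 were lower on the WT LSK/Flt3+ array than on the WT LSK/Flt3- array, 2 of them by at least 2-fold, beside 8601 of all 19938 genes that were lower. These were Slamf1 and Tek, a stem cell surface receptor and the angiopoietin receptor. Slamf1 read 8.52 and 8.17 on the null arrays, 6.16 on the WT LSK/Flt3- array and 5.08 on the WT LSK/Flt3+ array. Tek read 6.25, 6.22, 6.78 and 5.51 in the same order. The summed level of the stem cell list was 118 and 116 on the null arrays, 117 on the WT LSK/Flt3- array and 111 on the WT LSK/Flt3+ array. These sums hold moves in both directions: 7 of the 17 were higher in null than in WT LSK/Flt3- cells and 10 lower, beside 65.0% of all genes that were higher. At least 2-fold away on both null arrays were 2 of the 17, beside 0.632% of all genes. Slamf1 was higher, and Mecom was lower (6.97 and 6.51 against 8.06). Other marker lists also differed between the WT arrays. On the LSK/Flt3+ array 8 of 9 erythroid markers were lower (summed level 73.1 on LSK/Flt3-, 69.3 on LSK/Flt3+), while 8 of 9 lymphoid progenitor markers (65.3 and 72.4) and 10 of 10 macrophage markers (49.2 and 66.1) were higher. Higher there too were 10 of 10 granulocyte-monocyte progenitor markers (68.7 and 74.5). Over all genes, 56.6% were higher on the LSK/Flt3+ array, as were 63.1% of genes with a mean under 6. Of 10 endothelial markers 7 were higher (53.6 and 56.6), which is near those shares, and 0 were 2-fold apart. The granulocyte-monocyte list summed to 80.0 and 85.3 on the null arrays, with a median difference of 1.54 from WT LSK/Flt3- cells. Of its 10 genes, 9 were higher in null than in WT LSK/Flt3- cells, and 1, Irf8, was lower. Against WT LSK/Flt3+ cells 8 were higher and 2, Csf1r and Irf8, lower, beside 56.9% of all genes that were higher. Csf1r read 5.59 and 5.97 on the null arrays, 5.77 on the WT LSK/Flt3- array and 8.11 on the WT LSK/Flt3+ array. In RNA of a sorted population, fewer cells that express a gene and less RNA per cell cannot be told apart, and the part of these markers in the Grb10 values was not tested.

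The outermost listed Grb10 start is unusually rich in CpG, the dinucleotide that carries DNA methylation, which is why its promoter is shown. The 300 bases around it (RefSeq, GRCm38.p6) hold 45 CpG, at the 98.4th percentile of 32851 promoters whose median is 7. The other listed Grb10 start holds 9 CpG, at the 56.5th percentile, and the listed Igf2r start holds 34, at the 93.0th. The 9 genes have 16 listed starts, with a median of 13 CpG. The part printed runs 5′ to 3′ from chr11:12037429-12037670 on the minus strand and holds 40 CpG, and no base is marked in it.

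Grb10: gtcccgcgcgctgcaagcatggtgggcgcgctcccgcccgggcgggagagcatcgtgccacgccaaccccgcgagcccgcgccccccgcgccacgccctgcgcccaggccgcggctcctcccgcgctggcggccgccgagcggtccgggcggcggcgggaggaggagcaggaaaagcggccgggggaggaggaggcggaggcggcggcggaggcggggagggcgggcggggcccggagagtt

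Grb10 lies near Ikzf1, Fignl1, Ddc and Cobl, all within 200 kb in the RefSeq annotation of GRCm38.p6. These genes were looked at after the Grb10 values were known. Ikzf1, which encodes the lymphoid transcription factor Ikaros, read 8.67 and 8.63 on the null arrays against 9.06 and 9.01 on the WT LSK/Flt3- and LSK/Flt3+ arrays. Fignl1, an ATPase of DNA repair, read 9.60 and 10.01 against 9.51 and 9.90. Ddc, an aromatic amino acid decarboxylase whose gene is imprinted in some tissues, read 5.12 and 4.80 against 4.79 and 4.73. Cobl, an actin nucleator, read 6.01 and 5.72 against 5.46 and 5.46. None of the 4 spanned 2-fold. Unlike Grb10, none had both its highest value on the WT LSK/Flt3- array and its lowest on the WT LSK/Flt3+ array.

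The genes whose pattern over the 4 arrays was most like that of Grb10 were found by the Euclidean distance between centred log2 values. Among 8148 candidate genes with a median distance of 0.90, Rdh13 was nearest at 0.135, followed by Polr3g at 0.240 and Nckap1 at 0.248. Rdh13, a retinol dehydrogenase, read 5.99 and 6.29 on the null arrays, 6.62 on the WT LSK/Flt3- array and 5.64 on the WT LSK/Flt3+ array. Polr3g, a subunit of RNA polymerase III, read 7.05, 7.34, 7.72 and 6.90 in the same order. Nckap1, part of the WAVE complex of actin assembly, read 6.39, 7.12, 7.15 and 6.10. With 4 points a gene, and so many candidates, this likeness describes these arrays only.

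**Figure D2:**
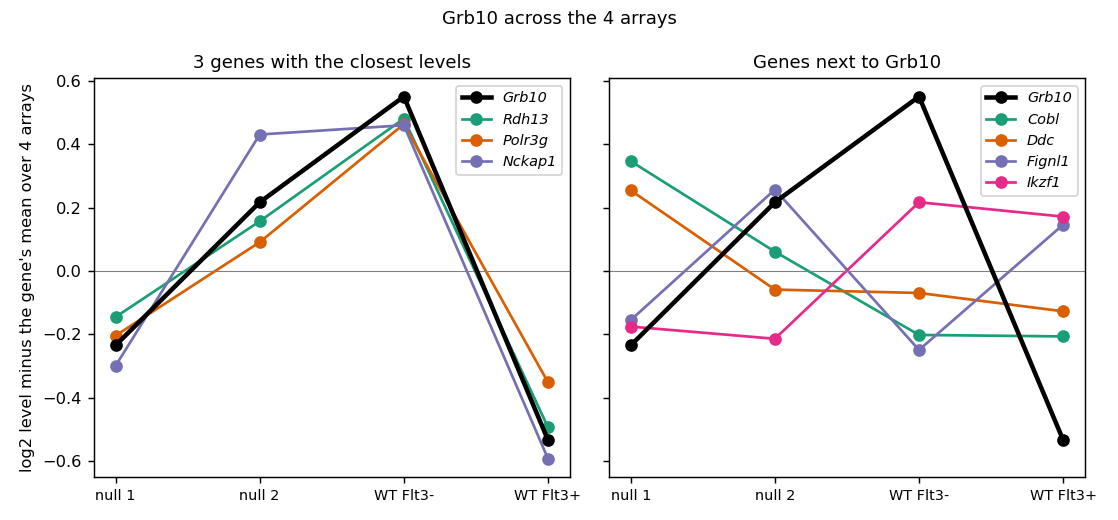
Log2 level relative to each gene's mean over the 4 arrays for Grb10, the 3 genes nearest to it in pattern, and its chromosomal neighbours. The neighbours stay within 0.55 from lowest to highest, while Grb10 and the 3 nearest genes peak on the WT LSK/Flt3- array.

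Igf2 encodes the growth factor ligand IGF2, and Igf2r the receptor that takes the ligand up for degradation. Igf2 read 5.30 and 4.82 on the null arrays, 4.98 on the WT LSK/Flt3- array and 5.34 on the WT LSK/Flt3+ array. Igf2r read 5.69 and 6.12 on the null arrays, 6.00 on the WT LSK/Flt3- array and 6.26 on the WT LSK/Flt3+ array. For both genes the null arrays enclosed the WT LSK/Flt3- value and lay below the WT LSK/Flt3+ value. Between null and WT LSK/Flt3- cells, Igf2 differed by 0.08 ± 0.33 (SE), with an interval of -0.67 to 0.82, and Igf2r by -0.10 ± 0.35, with an interval of -0.88 to 0.69 (limma, adjusted p = 1 for both). Against WT LSK/Flt3+ cells the differences were -0.28 for Igf2 and -0.36 for Igf2r, and neither passed the test (limma, adjusted p = 1). The null arrays moved apart in opposite directions, Igf2 being 0.48 higher and Igf2r 0.43 lower on replicate 1.

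Other members of the IGF pathway set these values in context. Of 34 measured genes of IGF and insulin signalling, 0 passed the test against WT LSK/Flt3- cells by the adjusted or the unadjusted p (limma), beside 0.0201% and 2.4% of all genes. Their median was -0.03, beside 0.09 over all genes. The larger differences there were 0.68 for Pik3cd, a PI3 kinase subunit, and 0.64 and 0.63 for Igfbp4 and Igfbp1, which bind IGFs. Against WT LSK/Flt3+ cells, where 0.316% of all genes passed, 1 of the 34 fell, Igf1, which encodes the ligand IGF1. It read 4.56 and 4.30 on the null arrays and 4.47 on the WT LSK/Flt3- array, against 6.27 on the WT LSK/Flt3+ array. The difference of null from WT LSK/Flt3+ cells was -1.84 ± 0.31 (SE; limma, adjusted p = 0.0473), but over the alternatives that kept the gene the adjusted p ran from 0.00606 to 0.898. The call was lost with the same prior for all genes (0.0778), with only the arrays compared in the fit (0.0504) and with both WT arrays as 1 group (0.898, difference -0.94), and the filter on level left Igf1 out. The value is set by that lone array, on which 10 of 10 macrophage markers were higher than on the WT LSK/Flt3- array, 7 of them by at least 2-fold. Over all genes, 56.6% were higher there and 1.1% were at least 2-fold apart in either direction. The summed macrophage level was 66.1 there and 48.2 to 49.9 on the other arrays. Mrc1, the mannose receptor, read 8.62 there and 4.46 to 4.70 elsewhere, and C1qc, a complement subunit, read 8.18 and 3.59 to 4.89. Their part in the Igf1 value was not tested. Igf1r, the receptor of both ligands, read 7.90 and 8.06 on the null arrays against 7.66 and 7.26 on the WT LSK/Flt3- and LSK/Flt3+ arrays, and its differences of 0.33 and 0.72 did not pass the test (limma).

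Plagl1, Peg3 and Ndn are nuclear regulators. Plagl1, a zinc-finger transcription factor that slows the cell cycle and acts on other imprinted genes, read 5.16 and 4.92 on the null arrays against 4.97 in WT LSK/Flt3- and 4.86 in WT LSK/Flt3+ cells. Peg3, a zinc-finger protein of p53 and NF-kB signalling, read 4.70 and 4.74 against 4.61 and 4.78. Ndn, which encodes necdin, a growth suppressor tied to stem cell quiescence, read 4.96 and 5.08 against 5.05 and 4.80. The spans of these genes were among the narrow ones, and null and WT LSK/Flt3- values overlapped for Plagl1 and Ndn. Differences from WT LSK/Flt3- cells were 0.07 for Plagl1, 0.11 for Peg3 and -0.03 for Ndn, and from WT LSK/Flt3+ cells 0.18, -0.05 and 0.22 (limma, adjusted p = 1 for each). The 95% interval of each of these 6 differences in array level lay within 2-fold, for genes that all had a mean under 6. For Ndn, for example, the intervals were -0.71 to 0.65 and -0.46 to 0.90.

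Plagl1 protein binds a GC-rich site, and its palindromic centre GGGGCCCC was searched in the promoters of the group. The 8 letters read the same on both strands and were found in 354 of 32851 promoters, or 1.08%. Among the 16 starts of the 9 genes they were present in 1, that of Peg3, which is why its promoter is shown. It runs 5′ to 3′ from chr7:6730463-6730669 on the minus strand (RefSeq, GRCm38.p6), with the match in capitals.

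Peg3: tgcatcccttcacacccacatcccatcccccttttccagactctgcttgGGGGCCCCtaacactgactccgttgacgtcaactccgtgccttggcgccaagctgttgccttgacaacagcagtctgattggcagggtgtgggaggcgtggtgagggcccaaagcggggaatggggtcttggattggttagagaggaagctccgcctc

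Peg3 and Plagl1 levels on the arrays, given above, spanned 0.17 and 0.30. A match of letters is a description of the sequence only.

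Dlk1 and Meg3 neighbour each other on chromosome 12. Dlk1, a membrane protein related to Notch ligands, is read from the paternal copy, and Meg3, a long noncoding RNA, from the maternal copy. Dlk1 read 5.73 and 5.52 on the null arrays, 5.26 on the WT LSK/Flt3- array and 5.51 on the WT LSK/Flt3+ array. Meg3 read 5.70 and 5.47 on the null arrays, 5.57 on the WT LSK/Flt3- array and 5.12 on the WT LSK/Flt3+ array. Both null arrays were above the WT LSK/Flt3- array for Dlk1 and above the WT LSK/Flt3+ array for Meg3. The Dlk1 difference from WT LSK/Flt3- cells was 0.37 ± 0.32 (SE), with an interval of -0.35 to 1.09 (limma, adjusted p = 1). Against WT LSK/Flt3+ cells Dlk1 differed by 0.11. Meg3 differed from WT LSK/Flt3- cells by 0.01, with an interval of -0.71 to 0.74, and from WT LSK/Flt3+ cells by 0.47, with an interval of -0.26 to 1.19 (limma, adjusted p = 1 for each). Of 17 Notch pathway genes, 0 passed the adjusted or the unadjusted test in either comparison (limma), beside 2.4% and 3.44% of all genes by the unadjusted p. Their medians were 0.10 and 0.15, beside 0.09 and 0.05 over all genes. Against WT LSK/Flt3- cells Dlk2, a relative of Dlk1, differed by 0.50, the receptor Notch2 by 0.45 and the ligand Dll1 by 0.43. The null arrays were uneven: on replicates 1 and 2 the differences were 0.86 and 0.13 for Dlk2, 0.17 and 0.74 for Notch2, and 0.61 and 0.26 for Dll1.

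The rest of the Meg3 region was read through the noncoding RNA Rian, the retrotransposon-derived gene Rtl1, the deiodinase Dio3 and many microRNA genes. Rian read 4.83 and 4.11 on the null arrays against 4.04 and 3.87 on the WT LSK/Flt3- and LSK/Flt3+ arrays. Rtl1 read 5.28 and 4.95 against 4.76 and 4.36. Dio3 read 4.63 and 4.02 against 4.0 and 4.22. Each was highest on null replicate 1. Rtl1 was 0.76 higher in null than in WT LSK/Flt3+ cells (limma, unadjusted p = 0.036, adjusted p = 1). The 40 microRNA genes within 200 kb of Meg3 are probed as their gene, not as the mature strand, and are cut from shared transcripts, so they are not independent. Their median difference from WT LSK/Flt3- cells was 0.09, with a range of -0.25 to 0.42. Of the 40, 31 were higher, beside 196 of the 251 other microRNA genes and 75.5% of all genes with a mean under 6. On null replicate 1 the median was 0.17 and on null replicate 2 it was 0.01. Of the 40, 34 were higher on null replicate 1 than on replicate 2, beside 228 of the 251 other microRNA genes, and only Mir679 spanned 2-fold (6.75 and 5.70 on the null arrays, 6.16 and 5.90 on the WT arrays). The 251 others had a median difference of 0.18, with 0.36 on null replicate 1 and -0.02 on null replicate 2.

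**Figure D3:**
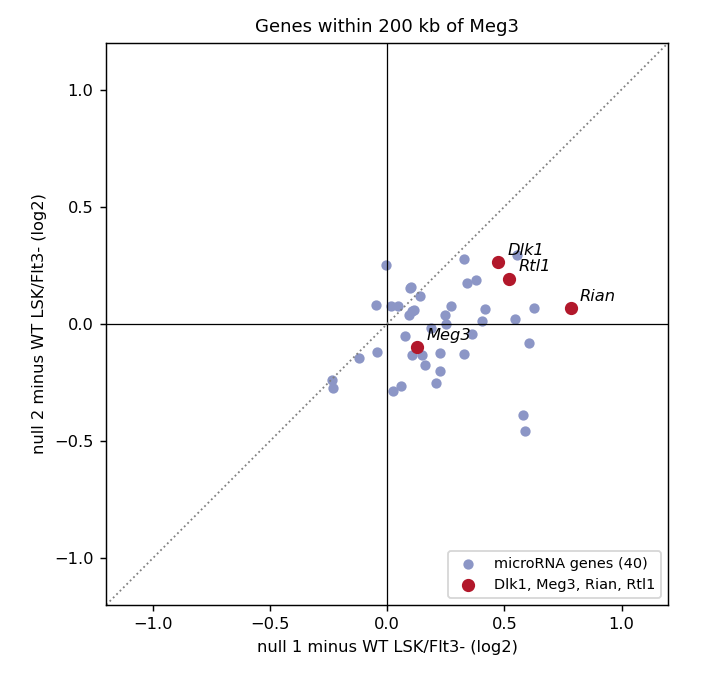
Log2 difference from the WT LSK/Flt3- array on null replicate 1 (horizontal axis) and on null replicate 2 (vertical axis) for Dlk1, Meg3, Rian, Rtl1 and the 40 microRNA genes within 200 kb of Meg3, with a dotted line of equality. Of the 40 microRNA genes, 34 lie below the line, their medians being 0.17 on replicate 1 and 0.01 on replicate 2.

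Mest, a paternally read gene for a protein of the hydrolase fold, read 4.65 and 4.55 on the null arrays, 4.62 on the WT LSK/Flt3- array and 4.74 on the WT LSK/Flt3+ array. Its differences were -0.02, with an interval of -0.68 to 0.64, and -0.14, with an interval of -0.80 to 0.52 (limma, adjusted p = 1 for each). The 4 values of Mest lay within 0.19 of each other. MicroRNAs hosted by Mest and by Igf2 were also on the arrays. They are shown because their gene's level can be set beside that of the host on each array, with the seed (bases 2 to 8 from the 5′ end), which pairs with targets, in capitals (RefSeq, GRCm38.p6).

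mmu-miR-335-5p: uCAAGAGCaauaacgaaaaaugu

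mmu-miR-335-3p: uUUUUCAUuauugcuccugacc

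mmu-miR-483-3p: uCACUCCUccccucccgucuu

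mmu-miR-483-5p: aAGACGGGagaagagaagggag

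No 2 of the 4 strands share a seed. Mir335, in Mest on chromosome 6, read 5.95 and 5.39 on the null arrays against 5.43 and 5.55 on the WT LSK/Flt3- and LSK/Flt3+ arrays. Mir483, in Igf2 on chromosome 7, read 7.55 and 6.97 against 6.79 and 6.65. Each was highest on null replicate 1, where 228 of the 251 microRNA genes outside the Meg3 region were also higher than on replicate 2. Null replicate 1 was the highest of the 4 arrays for Dlk1, Meg3 and Plagl1 among the 9 genes, beside 47.2% of all genes and 59.7% of genes with a mean under 6.

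The 9 genes were then read together against WT LSK/Flt3- cells, the comparison matched for Flt3. By the limma adjusted p, 0 of 9 passed, beside 0.0201% of all genes. By the unadjusted p under 0.05, 0 of 9 passed, beside 2.4%. None was at least 2-fold away on both null arrays, beside 0.632%. The median difference was 0.01, with 5 genes higher and 4 lower, where the median of all genes was 0.09. Both null arrays lay on the same side of the WT array for 3 of 9 genes (Dlk1, Peg3 and Grb10), beside 61.2% of all genes, and for 5 after quantile scaling, 5 with equal array medians and 6 after cyclic loess. The 95% interval lay within 2-fold for 7 of 9 genes, the exceptions being Grb10 and Dlk1, and all 9 intervals held 0. Interval widths were alike, with an SE of 0.30 for Mest to 0.36 for Grb10 beside a median of 0.34 over all genes. The count within 2-fold was not made over all genes, so it is not read as a trait of these 9.

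Against WT LSK/Flt3+ cells, where Flt3 state differs with genotype, 0 of 9 passed by the limma adjusted p, beside 0.316% of all genes, and 0 of 9 by the unadjusted p, beside 3.44%. None was 2-fold away on both null arrays, beside 1.34%. The median difference was 0.11, with 5 genes higher and 4 lower, where the median of all genes was 0.05. Both null arrays lay on the same side of the WT array for 9 of 9 genes, beside 60.2% of all genes. That count depended on the scaling, being 7 after quantile scaling, 8 with array medians made equal and 7 after cyclic loess. The interval lay within 2-fold for 5 of 9 genes, the exceptions being Igf2, Igf2r, Meg3 and Grb10, and here too no such count was made over all genes. Both comparisons share the null arrays. For replication, their p-values draw only on the 2 null arrays, whose spread may be technical. Each gene's own spread, at 1 residual degree of freedom, was weighed with a trend over all genes at 9.01 prior degrees. Peg3, whose null arrays had an SD of 0.03, had an SE of 0.30, and Igf2, with an SD of 0.34, one of 0.33. The result is applied to a lone WT array too, whose own spread is unknown.

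**Figure D4:**
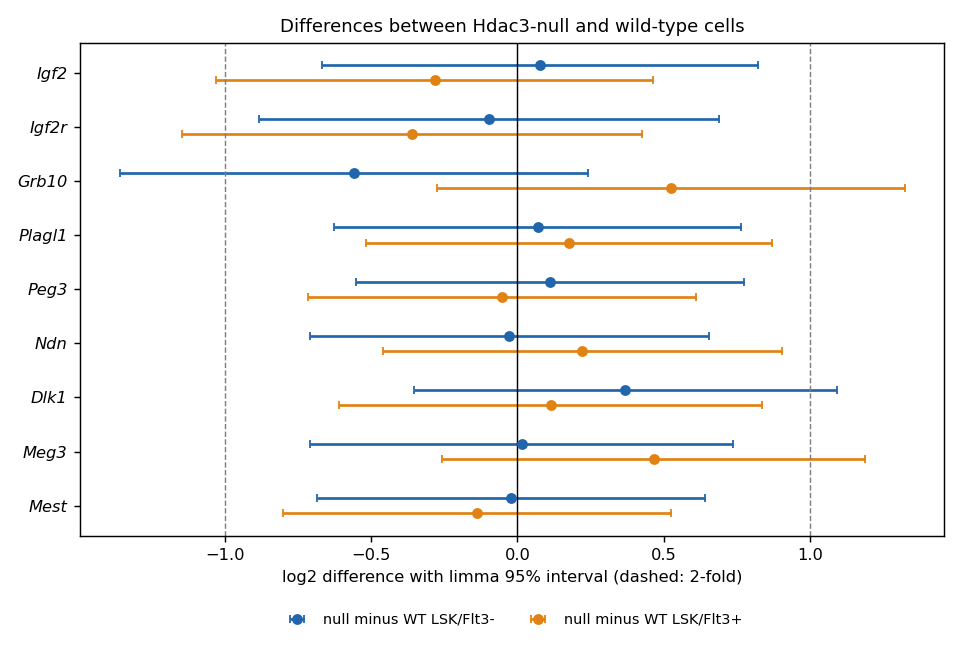
Log2 difference of null from WT LSK/Flt3- and from WT LSK/Flt3+ cells for the 9 imprinted genes (points), with the 95% interval from limma (bars). All intervals cross 0, and those of Grb10 reach from -1.36 to 0.24 and from -0.27 to 1.32.

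The null arrays differed by at least 2-fold for 0 of the 9 genes, beside 2.82% of all genes. Replicate 1 was higher for Igf2, Dlk1, Meg3, Plagl1 and Mest, and lower for Peg3, Ndn, Igf2r and Grb10, with Mest turning lower under quantile, equal-median and cyclic loess scaling. The median of the group was 0.10, and that of all genes was 0.14. Over all genes this offset depended on the level: it was 0.22 for genes with a mean under 6 and -0.04 for brighter ones. Grb10 and Igf2r, the pair with a mean of 6 or more, were further below replicate 2 than the rest, by 0.45 and 0.43.

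A further 42 imprinted genes were measured of 52 listed. Against WT LSK/Flt3- cells 0 passed the adjusted or the unadjusted test (limma), beside 0.0201% and 2.4% of all genes. The median was 0.16, beside 0.09 over all genes and 0.14 over genes with a mean under 6. Of the 42, 31 were higher and 11 lower, beside 65.0% of all genes and 75.5% of genes with a mean under 6 that were higher. Calcr, the calcitonin receptor, and Rian had differences of 0.43, and Klf14, a transcription factor, one of 0.42. Null replicate 1 was the highest array for 25 of the 42. Cdkn1c, which encodes the cell cycle inhibitor p57 and is much studied in stem cells, read 5.45 and 5.55 on the null arrays against 5.59 and 5.54 on the WT LSK/Flt3- and LSK/Flt3+ arrays. Its 4 values lay within 0.14 of each other.

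Against WT LSK/Flt3+ cells 0 of the 42 passed the adjusted test and 2, Dcn and Rtl1, the unadjusted test (limma), beside 0.316% and 3.44% of all genes. The median was 0.10, beside 0.05 over all genes. Dcn, the matrix proteoglycan decorin, read 4.87 and 4.53 on the null arrays, 4.55 on the WT LSK/Flt3- array and 5.84 on the WT LSK/Flt3+ array, a null difference of -1.14 (limma, adjusted p = 0.444). Decorin is made mainly by stromal cells. Of 12 markers of a stromal list without Dcn, 11 were higher on the WT LSK/Flt3+ than on the WT LSK/Flt3- array, 2 of them by at least 2-fold. Most of these differences were small, with a median of 0.20 over the list. Vcam1 stands on both the stromal and the macrophage list, so the stromal list is not specific to stromal cells. Beside them, 56.6% of all genes and 63.1% of genes with a mean under 6 were higher there, and 1.1% of all genes were 2-fold apart in either direction. The summed level of the stromal list was 59.7 on the WT LSK/Flt3+ array and 54.7 to 57.3 on the other arrays, and the part of these markers in the Dcn value was not tested. Impact and Mcts2 are imprinted genes of translation control. Impact read 10.02 and 8.92 on the null arrays against 9.76 and 9.31 on the WT LSK/Flt3- and LSK/Flt3+ arrays. Mcts2 read 8.43 and 6.38 against 7.0 and 6.49. For both genes the spread between the null arrays exceeded their distance from either WT array.

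Proteins that write, keep or erase imprints were read through 21 genes. Of these, 0 passed the adjusted test in either comparison, and the unadjusted test was passed by 0 against WT LSK/Flt3- and by 1, Dppa3, against WT LSK/Flt3+ cells (limma), beside 2.4% and 3.44% of all genes. Their medians were 0.03 and 0.11, beside 0.09 and 0.05 over all genes. Tet1, which oxidises methylated cytosine, differed from WT LSK/Flt3- cells by -0.62, and Zfp57, which guards imprints in the early embryo, by 0.51. Mbd3, of a chromatin remodelling complex, differed by -0.43, with -0.88 on null replicate 1 and 0.02 on replicate 2. None of these genes passed the test.

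**Figure D5:**
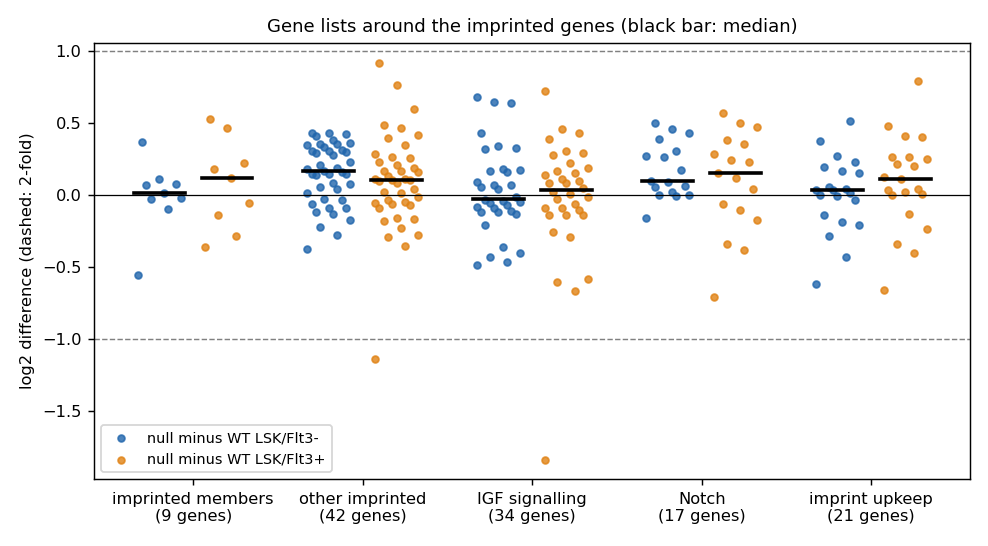
Log2 difference of null from WT cells for the genes of each list (the 9 imprinted genes, other imprinted genes, IGF signalling, Notch and imprint upkeep), with the list median. All medians against WT LSK/Flt3- cells lie between -0.03 and 0.16.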

How the data were processed

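RNA of 4 sorted cell samples was measured on Affymetrix arrays. The authors deposited 1 log2 level for each probe set and array, from RMA in affy 1.23 as the submitters' processing notes list. RMA removes background, scales arrays and combines probes, yet array medians differed, so the scaling is not settled. The genome build, detection calls and scan batches were not given in the sources used here.

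Of 35556 probe sets, 21789 had 1 gene symbol in the platform annotation, 1621 several and 12146 none. The single-symbol sets gave 19938 genes, and the set with the highest mean stood for the 999 genes with more than 1. No filter on low values was set.

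All genes were fitted in limma 3.58.1 (R 4.3.3) over 4 arrays and 3 groups, with a trended prior, 1 residual degree of freedom, 9.01 prior degrees of freedom and Benjamini-Hochberg adjustment at 0.05. The median SE of a difference was 0.34. WT groups have 1 array each and were compared without a test, and the small number of arrays limits precision.

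The members' rule uses no measured value, but the members and gene lists were chosen with earlier results of these data known. Every member is named with its level on each array. Of each other list, genes past the threshold, those 2-fold away on both null arrays and up to 3 of the largest differences from WT LSK/Flt3- cells are eligible, and a gene with a mean of at least 6 and a 2-fold range got its 3 nearest patterns. Other genes named (Igf1r, Cdkn1c, Impact, Mcts2, Rian, Rtl1, Dio3, Dcn, Dppa3, Slamf1, Tek, Mrc1, C1qc, microRNA genes and neighbours) were picked with their values known. So were Csf1r, Irf8 and Vcam1. Probe sets shared by several genes kept Snrpn, Ube3a and Gnas out. Promoter and microRNA sequences are RefSeq's (GRCm38.p6). Alternatives were other scalings, robust or untrended priors, a filter on level, the mean of a gene's probe sets, other groupings of arrays and leaving out each null array.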

Additional observations from a re-analysis of the deposited data

How the results depend on the processing

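The 2 null arrays and 1 array per WT group limit the precision. With a median SE of 0.34, differences well under 2-fold are not resolved. Differences above 2-fold also missed the adjusted threshold against WT LSK/Flt3- cells. Slamf1, at 2.18, had an adjusted p of 0.174, and Flt3, at -1.75, one of 0.692 (limma). Only 4 of 19938 genes passed there, so a lack of passing members is not by itself evidence against a 2-fold change. No member passed the threshold under any of the 9 alternatives that give a test, in either comparison, and the lowest adjusted p (limma) of any member was 0.924. For every member, the mean of a gene's probe sets gave the same levels as the main setting, so that alternative could not change their differences. The filter on level tested only Grb10 and Igf2r. No paired analysis was possible because only the null group has more than 1 replicate number.

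Small differences from WT LSK/Flt3- cells changed sign with the scaling, which moved the all-gene median from 0.09 to 0.01 (quantile), -0.02 (equal medians) and 0.003 (cyclic loess). After quantile scaling Igf2 was -0.061, Meg3 -0.089, Peg3 -0.029 and Plagl1 -0.073. With equal medians Igf2 was -0.032, Meg3 -0.094 and Plagl1 -0.039, and the members' median was -0.094. After cyclic loess Igf2 was -0.077, Meg3 -0.12, Peg3 -0.046 and Plagl1 -0.088, with a median of -0.12. With both WT arrays as 1 group, a change of grouping and not of scaling, Igf2 was -0.10 and Ndn 0.096, both changed in sign. Peg3 was 0.029 and Grb10 -0.017, with the sign they had against WT LSK/Flt3- cells. Only their differences from WT LSK/Flt3+ cells, -0.05 and 0.53, had the other sign. A mean of at least 6 left 2 members, whose medians were -0.33 against WT LSK/Flt3-, -0.41 between WT arrays and -0.44 between null arrays. Leaving out a null array gave members' medians of -0.05 to 0.09 against WT LSK/Flt3- cells, and Grb10 values of -0.79 to -0.33. The Grb10 difference between WT arrays was -1.16 to -1.09 under the alternatives. Over all genes, the 4 higher and 0 lower against WT LSK/Flt3- cells became 12 and 13 with a robust prior, 0 and 0 after quantile scaling and 2 and 0 with equal medians. The 7 and 56 against WT LSK/Flt3+ cells became 15 and 99 with a robust prior, 10 and 85 with equal medians, 10 and 101 after cyclic loess, 5 and 17 with the filter on level, and 5 and 0 with both WT arrays as 1 group. The cause of these changes was not tested.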
